A study of Mus musculus with 18 samples.

Results

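The transcription factor NF-kB was followed here through the 5 genes that encode its subunits (Rela, Relb, Rel, Nfkb1 and Nfkb2) and through 5 genes that restrain or adjust it (Nfkbia, Nfkbie, Nfkbiz, Bcl3 and Tnfaip3), in mouse cortex after a transient stroke. These 10 genes were picked by symbol, with earlier results of these data known, out of 37319 genes with deposited values, and all 10 were found. The RNA came from whole ipsilateral cortex of adult male C57BL/6J mice aged 8 to 10 weeks. A viral vector (adeno-associated virus, AAV) had been injected into the left lateral ventricle. Under the synapsin promoter, which is used for expression in neurons, it carried a short hairpin RNA against Tiparp (AAV-SYN-shRNA-TIPARP) or a scramble control (AAV-SYN-shRNA-Con). Surgery came 4 weeks after the virus. It was a sham operation or a transient occlusion of the middle cerebral artery (tMCAO), and tissue was taken at 24 h or 28 d after the occlusion.

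The 18 libraries made 6 groups of 3. In the Tiparp arm they were Sham_T, R24h_T and R28d_T, and in the scramble arm Sham_C, R24h_C and R28d_C. Every mouse carried a virus, the sham groups included, and no time is given for sham tissue. The labels do not say that the libraries of a group came from separate mice. The hairpin was meant for neurons, while the RNA is that of all cells of the tissue, in which fewer cells of a type and less RNA per cell cannot be told apart. Values are FPKM, which correct for gene length, so that levels of different genes can be set side by side.

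NF-kB is a dimer of Rel-family subunits that waits in the cytoplasm, bound by an inhibitor of the I-kB family. Cytokines, microbial products and products of dying cells activate I-kB kinase, the inhibitor is degraded, and the dimer enters the nucleus and switches on genes of inflammation and survival. Several of those genes encode the pathway's own parts, so that activation refills the inhibitors (Nfkbia, Nfkbie), the ubiquitin-editing enzyme that shuts off the upstream signal (Tnfaip3) and some of the subunits. In the brain after ischaemia, the pathway is known in neurons, glia, vessel cells and invading leukocytes.

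The promoters of the genes are described first. The RefSeq table of promoters (GRCm38.p6, with 250 bases before and 50 bases after each start) held 7 of the 10 genes. Both strands were searched for the kB consensus, which is 3 G, a purine, any base, A or T, 2 pyrimidines and 2 C. It was found in 6 of the 7 genes, and the window of Rela had no match. Of all 27025 genes in the table, 5.14% had a match, although Nfkb2 with 3 windows and Tnfaip3 with 2 windows had more bases searched than a gene with 1. The stretches below lie before the start site and are shown because Nfkb2, Nfkbia, Nfkbie and Tnfaip3 were higher at 24 h, with Rel, which did not pass, beside them. Capitals mark the match, each stretch is written 5′ to 3′ on the strand of its gene, and a match is only a likeness in letters. In the Nfkbia stretch and the last Tnfaip3 stretch the consensus lies on the opposite strand, so the capitals show its reverse complement.
Nfkb2, chr19:46304678-46304727, plus strand: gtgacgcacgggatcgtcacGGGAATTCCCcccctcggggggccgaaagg
Rel, chr11:23771032-23771081, minus strand: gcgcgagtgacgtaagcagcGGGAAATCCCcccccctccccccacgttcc
Nfkbia, chr12:55492648-55492696, minus strand: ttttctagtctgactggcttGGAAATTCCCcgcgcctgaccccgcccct
Nfkbie, chr17:45555574-45555623, plus strand: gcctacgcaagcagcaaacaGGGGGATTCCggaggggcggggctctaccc
Tnfaip3, chr10:19015506-19015555, minus strand: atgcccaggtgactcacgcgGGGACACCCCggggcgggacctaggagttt
Tnfaip3, chr10:19015411-19015442, minus strand: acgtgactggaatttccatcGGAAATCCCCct
The Nfkb2 and Rel matches shown are each overlapped by another match shifted by 1 base. Nfkb2 had 2 further matches before a start site, 11 to 2 bases before that of its first window and 236 to 227 bases before that of its second, and 1 after the start in the second window. The only match of Bcl3 lay after the start site, so no stretch is shown for it.

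Some libraries stood apart. Among the 6 libraries at 24 h, R24h_T3 had the lowest level of all 10 genes, while R24h_C3 had the highest level of 7 genes and R24h_T2 of 3 genes. Among the 6 libraries at 28 d, R28d_T1 had the highest level of all 10 genes and R28d_C1 the lowest level of 7. Ttr, a gene of the choroid plexus, was above 100 FPKM in Sham_T1, Sham_T2, R24h_C3 and R28d_T2. The low values of shared genes gave a rough depth of 0.933 to 1.09 times that of Sham_C1. R24h_C3 also stood apart in its neuron markers. Those of cortical excitatory neurons summed to 69.0 FPKM there and to between 182 and 238 FPKM in the other 17 libraries. Those of striatal neurons, which label another region, summed to 190 FPKM in R24h_C3 and to between 28.4 and 163 FPKM in the others.

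Tiparp, the target of the hairpin, did not separate the arms, which are named here as labelled. Its sham levels were 4.17, 4.95 and 4.57 FPKM in Sham_T, against 4.45, 4.76 and 3.77 FPKM in Sham_C. At 24 h they were 3.99, 5.00 and 3.00 FPKM in R24h_T, against 6.66, 4.60 and 8.65 FPKM in R24h_C. At 28 d they were 3.97, 4.06 and 3.72 FPKM in R28d_T, against 4.46, 3.59 and 3.77 FPKM in R28d_C. The arms overlapped in each condition.

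**Figure D1:**
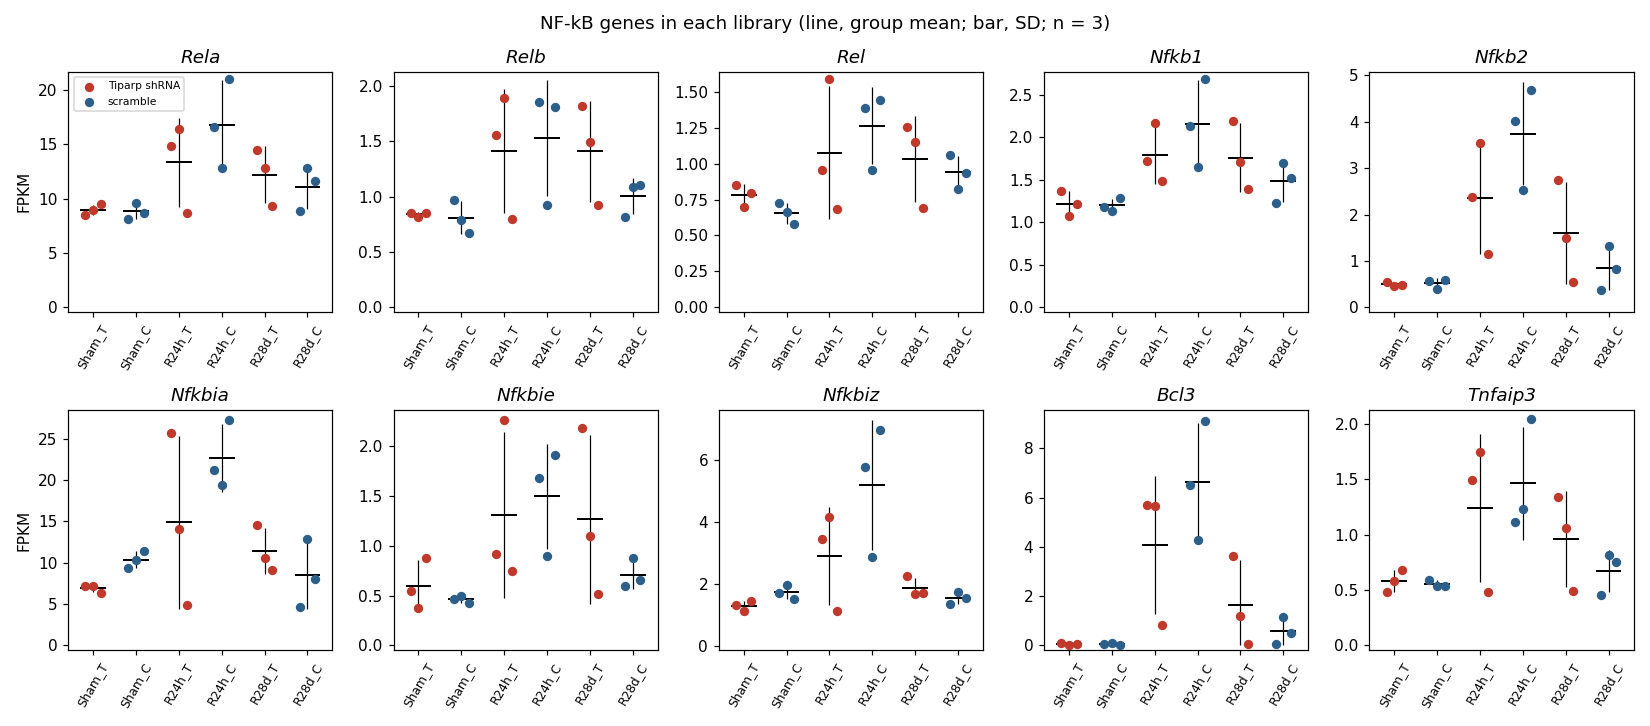
FPKM of the 10 NF-kB genes in each of the 18 libraries, with a panel per gene and a linear axis that includes 0. Points are libraries (red, Tiparp arm; blue, scramble arm), lines are group means and bars SD (n = 3). Bcl3 is between 0.827 and 9.09 FPKM at 24 h and at or below 0.115 FPKM in all 6 sham libraries.

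The first comparison asked how the NF-kB genes stood 24 h after tMCAO, with both arms together (6 libraries against 6). At 24 h, 9 of the 10 genes were higher than in sham and Rel did not pass the test. The largest differences were those of Bcl3, a nuclear I-kB protein, and of Nfkb2, the p100/p52 subunit. Their log2(FPKM + 1) differences were 2.41 ± 0.30 and 1.36 ± 0.18 (SE). Smaller differences were found for Nfkbia, Nfkbie, Nfkbiz and Tnfaip3 (0.55 to 0.90) and for the subunits Rela, Relb and Nfkb1 (0.41 to 0.66).

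The main activating subunit, Rela (p65), was by far the most abundant of the 5 subunit genes. Its level was 14.9, 16.4 and 8.70 FPKM in R24h_T1, R24h_T2 and R24h_T3, and 16.6, 12.8 and 21.0 FPKM in R24h_C1, R24h_C2 and R24h_C3. The 6 sham libraries lay between 8.14 and 9.60 FPKM, with a median of 8.83 FPKM. All 24 h libraries but R24h_T3 were above every sham library. Rela averaged 15.1 ± 4.13 FPKM at 24 h and 8.90 ± 0.558 FPKM in sham (SD, n = 6 each), a log2 difference of 0.66 ± 0.15 (SE) with a limma adjusted p of 0.0110.

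Nfkb1 encodes p105, which is cut to p50, the usual partner of Rela. It was at 1.72, 2.17 and 1.49 FPKM in R24h_T and at 2.13, 1.65 and 2.69 FPKM in R24h_C, against 1.07 to 1.37 FPKM in the sham libraries. The groups did not overlap, and R24h_T3, the lowest library at 24 h, was above all sham libraries. The log2 difference was 0.42 ± 0.10 (SE, adjusted p = 0.0109).

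Nfkb2 encodes p100, which holds RelB in the cytoplasm and is cut to p52 in the noncanonical branch of the pathway. Its level was 2.39, 3.54 and 1.14 FPKM in R24h_T and 4.01, 2.53 and 4.70 FPKM in R24h_C, against 0.395 to 0.580 FPKM in the 6 sham libraries (median 0.514 FPKM). Every 24 h library was above every sham library, by a wide margin in all but R24h_T3. The mean of the 24 h libraries, 3.05 ± 1.28 FPKM, was 6.05 times the sham mean of 0.505 ± 0.0755 FPKM (SD, n = 6 each). The log2 difference of 1.36 had an adjusted p of 0.000792. Exons of Nfkb2 share 299 bases with Psd and 531 bases with AC114539.1, both on the opposite strand, out of 4584 exon bases, and the sources used here do not say whether strand was used in quantification.

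Relb, the partner of p52, was at 1.56, 1.89 and 0.797 FPKM in R24h_T and at 1.86, 0.924 and 1.81 FPKM in R24h_C, against 0.676 to 0.969 FPKM in sham. The 24 h libraries R24h_T3 and R24h_C2 lay within the sham range and the other 4 above it. Its log2 difference was 0.41 ± 0.13 (SE, adjusted p = 0.0383), and it passed in only 4 of the 18 settings in which it was tested (adjusted p 0.00533 to 0.191). Rel, which encodes c-Rel, a subunit best known from lymphocytes and myeloid cells, had the smallest difference. It was at 0.957, 1.59 and 0.684 FPKM in R24h_T and at 1.39, 0.957 and 1.45 FPKM in R24h_C, against 0.578 to 0.852 FPKM in sham. Only R24h_T3 overlapped the sham range, and the log2 difference of 0.32 ± 0.11 (SE, adjusted p = 0.0550) did not pass. It passed in 2 of the 14 settings in which it could be tested, 1 of them without R24h_T3 (adjusted p = 0.00965).

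Because Nfkb2 differed more than the other subunit genes, the make-up of the subunit mRNA pool is described here, with no test, since it was looked at after the values were known. Summed FPKM of the 5 subunit genes had a median of 12.1 in sham, 23.6 at 24 h and 16.9 at 28 d. Nfkb2 made up 3.14% to 4.96% of that sum in sham, 8.93% to 15.5% at 24 h and 3.02% to 12.2% at 28 d. The share of Rela was 70.1% to 76.3% in sham, 63.8% to 69.2% at 24 h and 64.4% to 72.6% at 28 d. The ratio of Nfkb2 to Nfkb1 in FPKM was 0.349 to 0.488 in sham, 0.770 to 1.88 at 24 h and 0.305 to 1.26 at 28 d, and R24h_T3 was the only 24 h library below 1.

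**Figure D2:**
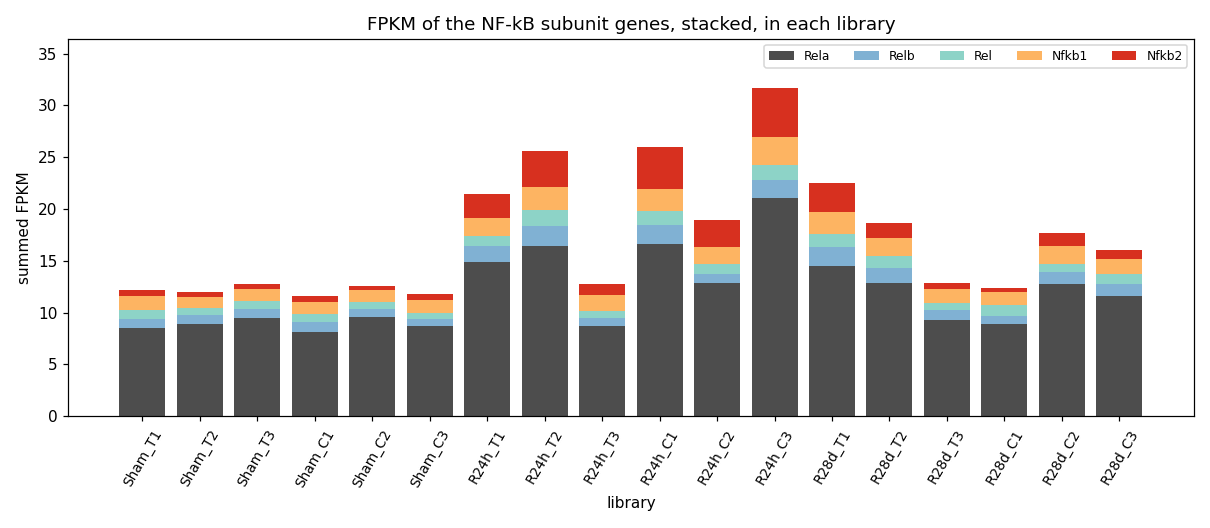
Summed FPKM of the 5 NF-kB subunit genes in each library, stacked by gene on a linear axis from 0. Rela (dark grey) is the largest part of every bar, and the Nfkb2 part (red) is 8.93% to 15.5% of the bar at 24 h, against 3.14% to 4.96% in sham.

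Of the inhibitors, Nfkbia (I-kB alpha), the classical inhibitor that NF-kB itself induces, had the highest level. It was at 25.7, 14.1 and 4.87 FPKM in R24h_T and at 21.2, 19.4 and 27.3 FPKM in R24h_C. The sham values were 7.13, 7.16 and 6.35 FPKM in Sham_T and 9.41, 10.3 and 11.4 FPKM in Sham_C. At 24 h, 5 libraries were above all sham libraries, and R24h_T3 was below all of them. The log2 difference was 0.90 ± 0.27 (SE, adjusted p = 0.0327). It passed in 8 of 18 settings and reached 1.18 without R24h_T3 (adjusted p = 0.000222).

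Nfkbie, the inhibitor I-kB epsilon, was at 0.918, 2.26 and 0.742 FPKM in R24h_T and at 1.68, 0.895 and 1.91 FPKM in R24h_C, against 0.371 to 0.875 FPKM in sham. Only R24h_T3 lay inside the sham range. The log2 difference was 0.61 ± 0.16 (SE, adjusted p = 0.0202). Nfkbiz encodes I-kB zeta, a nuclear member that is needed for a second wave of target genes in macrophages. Its level was 3.45, 4.16 and 1.11 FPKM in R24h_T and 5.76, 2.86 and 6.97 FPKM in R24h_C, against 1.12 to 1.97 FPKM in sham. R24h_T3 was just below the lowest sham library and the other 5 libraries were above the highest, with a log2 difference of 0.90 ± 0.22 (SE, adjusted p = 0.0151).

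Bcl3 is a nuclear I-kB protein that binds p50 and p52 dimers and can activate or repress with them. Its levels at 24 h were 5.71, 5.66 and 0.827 FPKM in R24h_T and 6.52, 4.26 and 9.09 FPKM in R24h_C. In sham cortex it was near 0, with 0.115, 0 and 0.0699 FPKM in Sham_T and 0.0495, 0.102 and 0.0381 FPKM in Sham_C. Even the lowest 24 h library, R24h_T3, was above all 6 sham libraries. The log2 difference of 2.41 ± 0.30 (SE, adjusted p = 0.000687) was the largest of the 10 genes. Of the 2475 exon bases of Bcl3, 161 are shared with Gm16175 on the opposite strand.

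Tnfaip3 (A20), which edits ubiquitin chains on upstream signalling proteins, was at 1.49, 1.74 and 0.486 FPKM in R24h_T and at 1.11, 1.23 and 2.04 FPKM in R24h_C, against 0.480 to 0.680 FPKM in sham. All 24 h libraries but R24h_T3 were above the sham range. Its log2 difference was 0.55 ± 0.15 (SE, adjusted p = 0.0205).

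The count of 9 higher genes of 10 stands beside 19.3% of all 14589 genes tested, of which 2812 were higher and 785 lower at 24 h. The median log2 difference of the 10 genes was 0.64, and that of all genes tested was 0.10. Median-ratio scaling removed this shift (all-gene median -0.00), gave 1739 higher and 1385 lower genes, and left 8 of the 10 genes higher, with Relb no longer passing (adjusted p = 0.0564). Nfkb1, Nfkb2 and Bcl3 did not overlap between 24 h and sham, where 8.19% of all genes tested had every 24 h library above every sham library. In sham, 6 of the 10 genes were below 1 FPKM in every library, so they entered the test through their 24 h values. With no filter on low values, 7 of the 10 passed, against 6.05% of 36050 genes that were higher. Without the 3 libraries with Ttr of at least 100 FPKM (Sham_T1, Sham_T2 and R24h_C3), only Bcl3 and Nfkb2 passed, of 8 genes tested, and 7.43% of all genes were higher. The log2 differences of the other 6 were then 0.89 for Nfkbia, 0.78 for Nfkbiz, 0.57 for Rela, 0.44 for Tnfaip3, 0.37 for Relb and 0.37 for Nfkb1. Without R24h_T3 all 10 passed, against 28.1% of all genes.

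**Figure D3:**
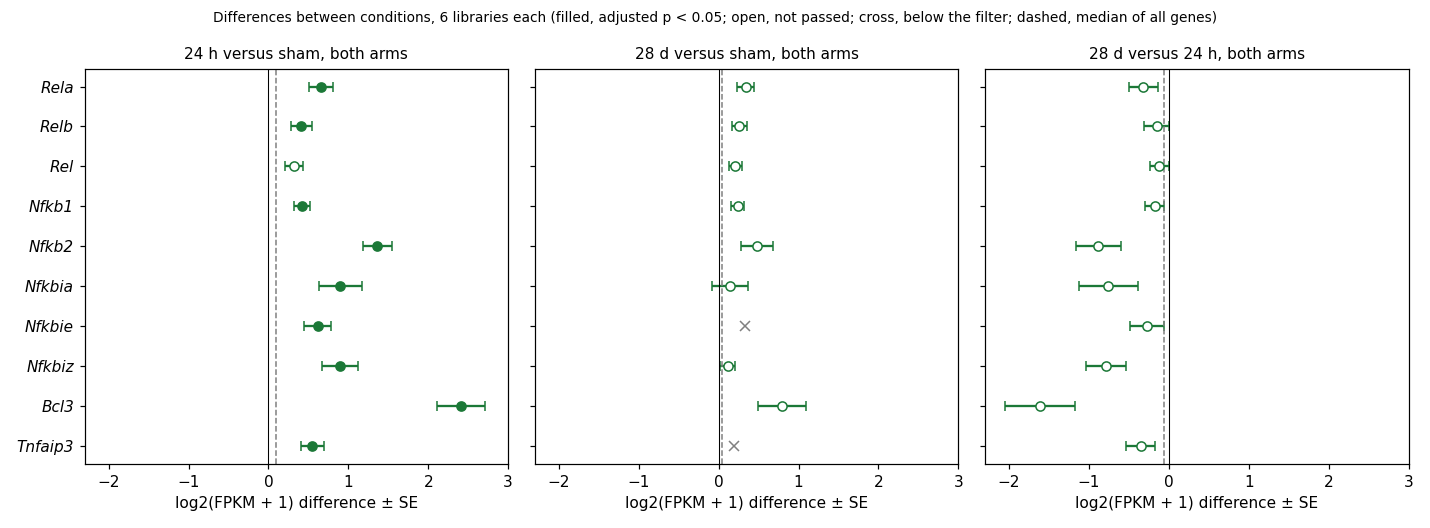
Log2(FPKM + 1) differences of the 10 NF-kB genes with their standard errors, for 24 h against sham, 28 d against sham and 28 d against 24 h (6 libraries each). Filled points passed at an adjusted p of 0.05, open points did not, crosses were below the filter, and the dashed line is the median of all genes tested. At 24 h against sham, 9 points are filled, and none is filled in the other panels.

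The wider pathway was described by lists of genes that were chosen with earlier results of these data known. Their counts stand beside the 19.3% of all genes that were higher at 24 h and their medians beside the all-gene median of 0.10. Genes low in sham entered through their 24 h values, so the counts and medians over tested genes partly follow from the filter. Of the genes named below, Tlr2, Tnfrsf11a, Birc3, Map3k8, Zc3h12a, Lcn2, Ccl2, Icam1 and Bcl2a1b were below 1 FPKM in every sham library. Of 28 ligands and receptors upstream of NF-kB, 18 were tested and 12 were higher at 24 h, with a median log2 difference of 1.25 over those tested. The TNF receptor Tnfrsf1a, which starts the canonical branch, was at 7.60 to 35.3 FPKM at 24 h and at 2.49 to 3.24 FPKM in sham (log2 difference 2.47, SE 0.25, adjusted p = 0.000239). The other named members were Tnfrsf12a, the receptor of TWEAK (2.77, adjusted p = 0.00148), the pattern receptor Tlr2 (1.69, adjusted p = 0.00153) and the RANK receptor Tnfrsf11a (0.67, adjusted p = 0.00112).

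Of 27 adaptors and ubiquitin enzymes, 21 were tested and 11 were higher (median 0.30). Myd88, the adaptor of Toll-like and interleukin-1 receptors, had a log2 difference of 1.57 (SE 0.21, adjusted p = 0.000777). Ticam1, the adaptor of Tlr3, had 0.63 (adjusted p = 0.00106), the ubiquitin ligase Birc3 had 0.91 (adjusted p = 0.00239), and Card9, an adaptor of myeloid cells, had 0.63 (adjusted p = 0.00318). Of 11 kinases, 10 were tested and 2 were higher (median 0.18). These were Map3k8 (0.67, adjusted p = 0.00432), a kinase held by p105, and Ikbkg (0.74, adjusted p = 0.00959), the regulatory subunit of I-kB kinase. The share of kinases that passed was near that of all genes.

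Of 16 other I-kB proteins and negative regulators, 15 were tested and 7 were higher (median 0.21), but only 3 after median-ratio scaling. The mRNA-destabilising protein Zfp36 had a log2 difference of 2.50 (adjusted p = 0.00287) and the ribonuclease Zc3h12a had 0.93 (adjusted p = 0.00457). The ubiquitin ligase Itch (0.28, adjusted p = 0.0146) and Tax1bp1 (0.41, adjusted p = 0.0150), which both work with A20, differed less. Of 30 known target genes with other roles, 25 were tested and 22 were higher (median 1.24). Lcn2, an iron-binding acute-phase protein, was at 2.31 to 63.7 FPKM at 24 h and at 0.140 to 0.362 FPKM in sham (log2 difference 4.38, SE 0.50, adjusted p = 0.000387). The chemokine Ccl2 (3.68, adjusted p = 0.00113), the adhesion molecule Icam1 (2.10, adjusted p = 0.000718) and the survival gene Bcl2a1b (2.01, adjusted p = 0.00172) followed, the last from a family of near-identical copies whose reads may be shared. No gene of the 5 lists was lower. Without the libraries with Ttr of at least 100 FPKM, 9 of 17 ligands and receptors, 5 of 20 adaptors and ubiquitin enzymes, 0 of 9 kinases, 2 of 15 negative regulators and 11 of 23 target genes passed. Adaptors numbered 7 without Sham_C3, negative regulators 4 without Sham_C1 or R24h_C1, and kinases 1 without R24h_C1, R24h_C3 or R24h_T1.

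Markers of other cells moved with these genes. Counts of higher markers stand beside the 19.3% of all genes that were higher at 24 h. Markers low in sham could reach the filter only through their 24 h values, so these counts partly follow from the filter. S100a8, Retnlg, Mmp8, Cxcr2, Msr1, F10, Flt1 and Tek, for example, were below 1 FPKM in every sham library. Of 8 monocyte and macrophage markers, 5 were tested and 4 were higher at 24 h, and their summed level was 21.4 to 105 FPKM in R24h_T and 31.5 to 190 FPKM in R24h_C, against 7.21 to 7.76 FPKM in Sham_T and 4.65 to 5.02 FPKM in Sham_C. Of 6 neutrophil markers, 4 were tested and 3 were higher, with sums of 4.08 to 22.4 FPKM in R24h_T and 21.7 to 200 FPKM in R24h_C, against 0.251 to 0.617 FPKM in Sham_T and 1.11 to 1.39 FPKM in Sham_C. Ly6g, the marker that defines neutrophils in mouse, was listed at 0 in 14 of the 18 libraries, and the macrophage marker F10 in 6. All 5 endothelial markers that were tested, of 6, were higher, with sums of 10.7 to 45.3 FPKM in R24h_T and 18.8 to 42.9 FPKM in R24h_C, against 3.96 to 4.75 FPKM in Sham_T and 4.53 to 5.17 FPKM in Sham_C. None of 6 lymphocyte markers reached the filter.

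Of 6 astrocyte markers 3 were higher, with sums of 246 to 374 FPKM in R24h_T and 452 to 554 FPKM in R24h_C, against 94.5 to 131 FPKM in Sham_T and 101 to 115 FPKM in Sham_C. Gfap was the largest part of each 24 h sum, at 150 to 414 FPKM, and the median log2 difference of the 6 markers was 0.29. The lowest level of Slc1a3 was 14.5 FPKM at 24 h and 31.0 FPKM in sham. Of 7 markers of homeostatic microglia, 1 was higher and 3 were lower. R24h_T3, the library with the lowest NF-kB genes, also had the lowest sums at 24 h of the monocyte, neutrophil, endothelial and astrocyte markers. The part of these cells in the levels of the NF-kB genes was not tested.

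The second question was whether the levels differed from sham at 28 d. None of the 8 genes that reached the filter passed, against 1 gene of 14242 in all (0.00702% higher). At an unadjusted p under 0.05 there were 6 of these 8 genes and 2463 of all 14242 genes tested. The log2 differences of the 10 genes had a median of 0.25, from 0.11 to 0.79, against an all-gene median of 0.04. The smallest p-values belonged to Rela (0.34, SE 0.10, adjusted p = 0.154) and Nfkb1 (0.24, SE 0.08, adjusted p = 0.179).

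The 28 d libraries were unlike each other. Bcl3 was at 3.64, 1.20 and 0.0739 FPKM in R28d_T and at 0.0762, 1.17 and 0.518 FPKM in R28d_C, against 0 to 0.115 FPKM in sham. Nfkb2 was at 2.75, 1.50 and 0.547 FPKM in R28d_T and at 0.372, 1.32 and 0.834 FPKM in R28d_C, against 0.395 to 0.580 FPKM in sham. For both genes R28d_T3 and R28d_C1 lay within or below the sham range, and the other 4 libraries lay above it.

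Rela was at 14.5, 12.8 and 9.30 FPKM in R28d_T and at 8.87, 12.8 and 11.7 FPKM in R28d_C, so that the same 4 libraries were above the sham maximum of 9.60 FPKM. Nfkbia was at 14.5, 10.6 and 9.13 FPKM in R28d_T and at 4.63, 12.8 and 8.06 FPKM in R28d_C, and only R28d_T1 and R28d_C2 were above the sham maximum of 11.4 FPKM. Nfkbiz, at 2.24, 1.68 and 1.71 FPKM in R28d_T and 1.36, 1.74 and 1.53 FPKM in R28d_C, was above the sham range in R28d_T1 alone. The other 5 genes were also highest in R28d_T1, with Nfkb1 at 2.19, Relb at 1.82, Rel at 1.25, Nfkbie at 2.18 and Tnfaip3 at 1.34 FPKM.

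R28d_T1 had the highest monocyte and macrophage marker sum of all libraries, 611 FPKM, of which Lyz2 alone made up 597 FPKM. It also had the highest astrocyte sum, 1094 FPKM, of which Gfap made up 886 FPKM. Other monocyte and macrophage markers were mixed. Cd14 reached 6.57 FPKM at 28 d and 75.9 FPKM at 24 h, and Msr1 0.941 FPKM at 28 d and 11.1 FPKM at 24 h. F10, Mrc1 and Ccr2 also had lower maxima at 28 d. Ms4a7 reached 2.52 FPKM at 28 d and 0.408 FPKM at 24 h, and Ly6c2 1.56 FPKM at 28 d and 1.03 FPKM at 24 h. R28d_C1, with 7 of the 10 genes at the lowest level of the 28 d libraries, had a monocyte and macrophage sum of 7.52 FPKM. Whether these cells set the levels of the NF-kB genes was not tested. Leaving out R28d_T3 gave 3 genes that passed (Rela, Rel and Bcl3), against 7.01% of all genes, and leaving out R28d_C1 gave 1 (Rela), against 3.26%.

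**Figure D4:**
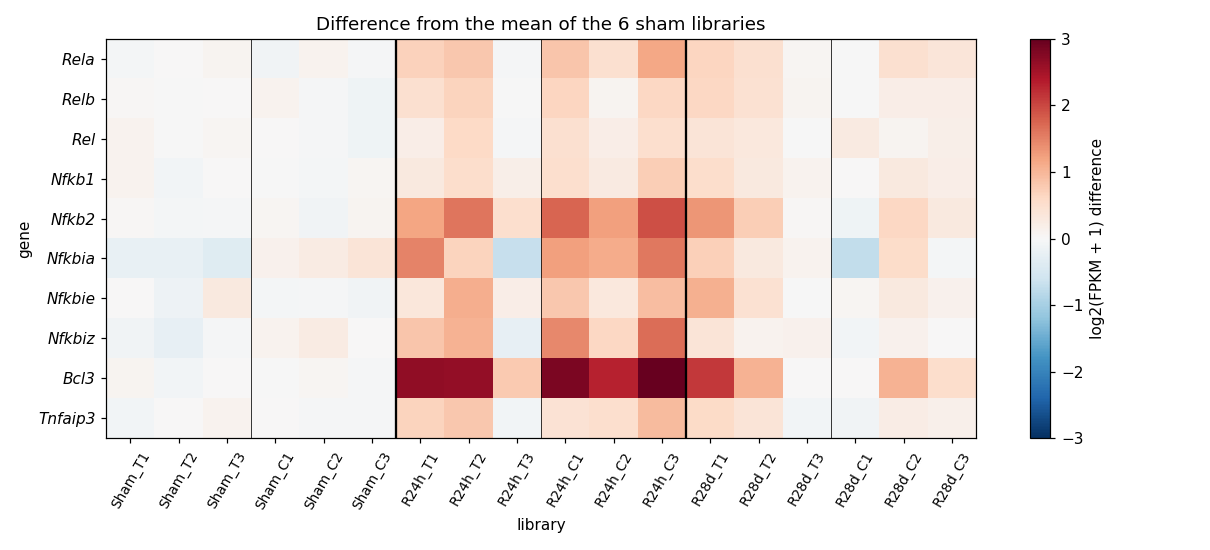
Log2(FPKM + 1) of each NF-kB gene in each library minus the mean of the 6 sham libraries, with genes in the order of their roles and libraries by condition and arm. Red is above and blue below the sham mean. R24h_T3 is the least red column at 24 h, and R28d_T1 is the reddest one at 28 d.

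Set directly against 24 h, the 28 d libraries had lower fitted levels of all 10 genes, but none passed, against 1.5% of 14756 genes that were lower. The log2 differences had a median of -0.34, and 3 of the 10 genes (Bcl3, Nfkb2 and Nfkbiz) had an unadjusted p under 0.05, as did 3797 genes in all. The smallest p-values were those of Bcl3 (-1.62, SE 0.44, adjusted p = 0.0630) and Nfkb2 (-0.88, SE 0.28, adjusted p = 0.0883). The outcome turned on single libraries. Without R24h_T3, 5 genes passed as lower at 28 d (Bcl3, Nfkb2, Nfkbia, Nfkbiz and Tnfaip3, adjusted p 0.00692 to 0.0363), against 13.1% of all genes. Without R28d_T1 there were 2, Bcl3 and Nfkb2, against 3.18%.

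The response at 24 h was next taken within each arm. In the scramble arm, 7 of the 10 genes reached the filter and all 7 were higher in R24h_C than in Sham_C, against 19.8% of 13880 genes. Of the 7, Bcl3, Nfkb2 and Tnfaip3 were below 1 FPKM in every Sham_C library and entered through R24h_C. With no filter on low values 3 of the 10 genes passed, against 4.5% of all genes that were higher. With the replicate block 4 of the 7 passed, against 12.1%. In the main fit the log2 differences were 2.79 for Bcl3 (SE 0.23, adjusted p = 0.00199), 1.62 for Nfkb2 (SE 0.18, adjusted p = 0.00488) and 1.05 for Nfkbia (SE 0.14, adjusted p = 0.00799). Nfkbiz had 1.12 (adjusted p = 0.0275), Rela 0.84 (adjusted p = 0.0207), Tnfaip3 0.64 (adjusted p = 0.0302) and Nfkb1 0.51 (adjusted p = 0.0390). In 9 of the 10 genes every R24h_C library was above every Sham_C library, Relb being the exception, against 36.1% of all genes tested. Rel and Nfkbie, which are among the 9, did not reach the filter, whereas the 36.1% covers only genes that did. Without Sham_C1, Sham_C2 or Sham_C3 there were 3 genes that passed, against 5.04%, 3.71% and 4.93% of all genes. Of the 4 genes tested without an R24h_C library, 1 passed without R24h_C1 (1.96% of all genes), 4 without R24h_C2 (27.5%) and 2 without R24h_C3 (11.4%).

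In the Tiparp arm, 5 genes reached the filter and none passed, against 0.133% of 13509 genes that were higher. The smallest p-values were those of Nfkb2 (1.10, SE 0.25, adjusted p = 0.140) and Nfkb1 (0.33, SE 0.14, adjusted p = 0.345), which were the 2 with an unadjusted p under 0.05, as were 1934 genes in all. Without R24h_T3, 3 of 4 genes tested passed: Nfkbia (1.35, adjusted p = 0.0355), Nfkbiz (1.07, adjusted p = 0.0155) and Rela (0.74, adjusted p = 0.0250), against 4.33% of all genes. A call in one arm and not in the other does not show that the arms differ, so the difference of the 24 h responses, Tiparp arm minus scramble arm, was tested by itself. None of the 10 genes passed, nor did any of 14589 genes (0.0%), and at an unadjusted p under 0.05 there were 0 of the 10 genes and 1593 in all. All 10 estimates were negative, from -0.76 to -0.10 (median -0.27, all-gene median -0.09). The smallest p-values belonged to Nfkb2 (-0.52, SE 0.34, adjusted p = 0.545) and Bcl3 (-0.76, SE 0.59, adjusted p = 0.600). Without R24h_T3 these were -0.23 and -0.14, and the estimates of Nfkbia (0.30), Relb (0.10) and Tnfaip3 (0.09) were positive.

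The last comparisons set the Tiparp arm against the scramble arm within a condition. They share libraries with those above. In sham, 4 genes reached the filter and none passed, against 0.21% of 13349 genes called in either direction. The gene with the smallest p was Nfkbia, at 7.13, 7.16 and 6.35 FPKM in Sham_T and 9.41, 10.3 and 11.4 FPKM in Sham_C. The arms did not overlap, and the log2 difference was -0.53 ± 0.08 (SE, adjusted p = 0.0997). Nfkbiz, at 1.31, 1.12 and 1.43 FPKM in Sham_T and 1.70, 1.97 and 1.52 FPKM in Sham_C, did not overlap either (-0.25 ± 0.09, SE, adjusted p = 0.337). Both had an unadjusted p under 0.05, like 1715 genes in all, and 19.5% of all genes tested had no overlap between the sham arms. Ttr was at least 100 FPKM in Sham_T1 and Sham_T2 and in no Sham_C library. Its part in these differences was not tested.

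At 24 h none of the 10 genes passed between the arms, nor did any of 14018 genes (0.0%), with 0 of the 10 genes and 1012 in all at an unadjusted p under 0.05. All 10 estimates were negative (median -0.25, all-gene median -0.08). The smallest p-values were those of Nfkbiz (-0.70, SE 0.39, adjusted p = 0.668) and Nfkb2 (-0.54, SE 0.30, adjusted p = 0.668). Without R24h_T3, Nfkbiz had -0.31 and Nfkb2 -0.25, while Relb (0.13), Tnfaip3 (0.11) and Nfkbie (0.03) were positive. Relb was also positive without R24h_C1 (0.03) or R24h_C3 (0.02). At 28 d none of the 8 genes that reached the filter passed, nor did any of 13779 genes (0.0%), with 0 and 347 at an unadjusted p under 0.05. All 10 differences were positive (median 0.23, all-gene median 0.02). The smallest p-values were those of Relb (0.25, SE 0.16, adjusted p = 0.994) and Nfkbiz (0.18, SE 0.12, adjusted p = 0.994), and without R28d_T1 they were 0.13 and 0.09. Rela was then at -0.01, and at -0.02 without R28d_C1.

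Ordered by group mean, all 10 genes were highest in R24h_C, then in R24h_T and then in R28d_T. For none of the 10 genes were any neighbouring groups in that order free of overlap, so the order of the 6 groups is not resolved at this number of libraries. The shares of all genes with this order or with such overlap were not counted, so neither is a trait of the 10 genes.

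Last, the pattern of each gene over the 18 libraries was set beside those of 14984 genes, as the mean absolute difference of standardised log2(FPKM + 1). This is a description, since libraries share condition and cell content, and the median distance of a gene of the family to all genes was 0.899 to 0.938 SD units. Nfkb2 and Bcl3 were the closest pair of the family, at 0.121, and no other gene was nearer to Nfkb2 than Bcl3. Every other gene of the family had outside genes nearer than its closest family member, from 2 for Bcl3 to 575 for Nfkbiz. The genes nearest to Bcl3 itself were Ifi207 (0.106) and Tnfrsf1a (0.119), and the next to Nfkb2 was Pros1 (0.123). Rela was nearest to Lilrb4a (0.172) and Bmp2k (0.183), Nfkb1 to Fgl2 (0.191) and Pak2 (0.194), Relb to Nono (0.224) and Tlr2 (0.233), and Rel to Gm9134 (0.255) and Ednrb (0.268). Among the genes that restrain or adjust NF-kB, Nfkbiz was nearest to Nsun2 (0.176) and Mvp (0.180), Nfkbie to Tnfaip2 (0.224) and Cybb (0.238), Tnfaip3 to Hif1a (0.236) and Ifi207 (0.244), and Nfkbia to Spsb1 (0.276) and Cebpd (0.286). Nfkbia was thus the gene of the family with the least close neighbours, and its nearest member of the family was Bcl3 at 0.409.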

How the data were processed

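The authors deposited FPKM per gene for 18 libraries. Per the submitters' processing notes, HISAT, StringTie and edgeR were used with build mm9, with no versions stated. FPKM hold no read totals, so depth is known only roughly and no counting interval is given. Poly(A) RNA was used and the second strand was marked, per the labels' protocols. Here limma 3.58.1 in R 4.3.3 was run on log2(FPKM + 1), with a trend, empirical Bayes and two-sided tests, on the libraries of the groups compared, with the arm as covariate where both arms entered. The filter was 1 FPKM or more in 3 or more of these libraries, and p was adjusted by Benjamini-Hochberg over every gene left, at 0.05. The filter admits a gene that is low in sham through high values in the other group, and the pseudocount of 1 understates changes of low genes. What the p-values measure is the spread between libraries, which may be technical. The genes and lists were chosen with earlier results of these data known. Named were all 10 genes for 24 h against sham, elsewhere those that passed or else the 2 with the smallest p, up to 4 passing genes per list, and 2 like genes per gene. Of 62 repeated symbols, the entry with the highest mean was kept. As alternatives, median-ratio scaling, no filter on low values, a pseudocount of 0.1, a replicate block and all 18 libraries in 1 fit were run, and libraries were left out, either those with Ttr of at least 100 FPKM or each in turn. The code was tested on simulated data. Promoters are from RefSeq GRCm38.p6, another build than mm9, and no coordinates were mixed.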

Additional observations from a re-analysis of the deposited data

How the results depend on the processing

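No log2 difference of the 10 genes given above with an adjusted p changed its direction under any alternative. Among the others, those that turned without R24h_T3, R24h_C1, R24h_C3, R28d_T1 or R28d_C1 in the comparisons of the arms are given above. Nfkbia at 28 d against sham was at -0.00 without the libraries with Ttr of at least 100 FPKM, and Rela and Nfkb1, near 0 between the sham arms, turned in 4 settings in all (-0.04 to -0.01). For 24 h against sham over both arms, 2 of 8 genes tested passed without the libraries with Ttr of at least 100 FPKM (7.43% of all genes higher). With 1 library left out, 6 to 10 passed, while 11.1% to 28.1% of all genes were higher. For 28 d against 24 h, 3 genes passed (Bcl3, Nfkb2 and Nfkbiz) with all 18 libraries in 1 fit (11.2% of all genes lower). With 1 library left out, 0 to 5 passed, while 0.00681% to 13.1% of all genes were lower. For 28 d against sham, 0 to 3 passed with 1 library left out (0.00705% to 7.01% of all genes higher). In the scramble arm 3 passed with no filter (4.5% of all genes higher), 4 with the replicate block (12.1%) and 2 of 4 tested without the Ttr libraries (11.4%). There, 1 to 4 passed with 1 library left out (1.96% to 27.5% of all genes higher), and without an R24h_C library only 4 genes were tested. In the Tiparp arm, 0 to 3 passed with 1 library left out (0.0% to 4.33% of all genes higher). The comparisons between arms and of the responses gave 0 throughout. The replicate block left 8 genes higher at 24 h over both arms, against 14.9% of all genes. Replicate numbers did not pair the libraries: over 45 pairs of same-numbered libraries from different groups, deviations from the group means had an r of -0.42 to 0.21, and 4 were over 0.1. Of the named log2 differences, 222 of the values with 1 library left out kept their side of the threshold, 35 fell short of it and 7 newly passed it; for other settings these were 157, 21 and 3. The FPKM values hold no counts, so that levels below 1 FPKM, where 6 of the 10 genes lay in sham, carry an unknown counting error.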

Other observations

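The lists of pathway genes were also counted at 28 d. Against sham, none of the 14 ligands and receptors, 18 adaptors and ubiquitin enzymes, 9 kinases, 15 negative regulators and 16 target genes that were tested passed, with limma and Benjamini-Hochberg adjustment. Their median log2 differences were 0.42, 0.11, 0.04, 0.09 and 0.51 in that order, against 0.04 over all genes. Against 24 h, 6 of 26 target genes and 2 of 18 ligands and receptors were lower, where 1.5% of all genes were. The counts were 1 of 22 adaptors and ubiquitin enzymes, 1 of 10 kinases and 0 of 15 negative regulators. Genes low at 28 d could reach the filter through their 24 h values, so these counts may partly follow from the filter. Of the target genes, 26 were tested against 24 h and 16 against sham. None was higher.

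The ratio of Nfkbia to Rela in FPKM was 0.671 to 0.837 in Sham_T and 1.07 to 1.31 in Sham_C. It was 0.560 to 1.73 in R24h_T and 1.28 to 1.51 in R24h_C, with a median at 28 d of 0.982 in R28d_T and 0.692 in R28d_C. These ratios were looked at after the values were known, and no test was made.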
